A study of Mus musculus with 6 samples.

Results

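The genes of the elastic fibre and its microfibrils were described in the heart ventricle of obese mice given Tributyrin or vehicle. The 10 genes were *Eln* (elastin), *Fbn1* (fibrillin-1), the fibulins *Fbln1*, *Fbln2* and *Fbln5*, the emilins *Emilin1* and *Emilin2*, and the microfibril-associated *Mfap2*, *Mfap4* and *Mfap5*. They were chosen by name, as mouse gene symbols, from the 54232 genes in each count file, and all 10 had enough reads to be among the 14133 genes tested. Both groups were wild-type C57BL/6J mice on a western diet (WD), which the study's methods give as lasting 15 weeks before treatment began. One group of 3 mice received Tributyrin, a butyrate-releasing triglyceride, and the other group of 3 mice received PBS as the vehicle. By the study's methods, both were needle-fed for 3 weeks with days on and days off, and the Tributyrin dose was 5 g/kg of body weight. The age of these mice and any pooling are not given in the labels. The comparison asked which heart transcripts differ with Tributyrin in this diet-induced model of early cardiac dysfunction, in which no chow-fed heart was sequenced among the 6 libraries used here.

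Elastic fibres let arteries, valves and the cardiac interstitium recoil after stretch. They are built on bundles of fibrillin microfibrils, onto which tropoelastin, the soluble product of *Eln*, is deposited with the help of fibulins and crosslinked by lysyl oxidases. Emilins sit at the interface of elastin and microfibrils, and the microfibril-associated glycoproteins bind fibrillin. In the heart, fibroblasts, vascular smooth muscle and valve cells make most of these proteins.

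The genes fall into families whose coding sequences are alike, and a read of 50 bases has to be assigned to one of them. The stretch of 50 coding bases in which each pair is most alike is shown for 3 pairs, with capitals marking the bases that match between the 2 genes. The sequences were read from GENCODE M21 transcripts on GRCm38 and run 5′ to 3′ on the coding strand. For *Fbln1* (chr15:85240646-85240695, plus strand) and *Fbln2* (chr6:91268564-91268613, plus strand), 44 of 50 bases match.
Fbln1: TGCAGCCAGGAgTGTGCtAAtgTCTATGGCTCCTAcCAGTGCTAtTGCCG
Fbln2: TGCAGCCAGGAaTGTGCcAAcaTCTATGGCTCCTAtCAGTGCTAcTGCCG
For *Emilin1* (chr5:30915554-30915603, plus strand) and *Emilin2* (chr17:71280763-71280812, minus strand), 38 of 50 bases match.
Emilin1: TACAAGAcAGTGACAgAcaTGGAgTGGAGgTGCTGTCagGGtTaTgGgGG
Emilin2: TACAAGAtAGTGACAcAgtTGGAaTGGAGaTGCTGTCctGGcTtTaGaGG
For *Mfap2* (chr4:141015015-141015064, plus strand) and *Mfap5* (chr6:122525983-122526032, plus strand), 33 of 50 bases match.
Mfap2: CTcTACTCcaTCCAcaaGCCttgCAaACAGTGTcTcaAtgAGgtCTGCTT
Mfap5: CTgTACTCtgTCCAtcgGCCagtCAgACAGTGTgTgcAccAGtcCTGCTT
No 50-base word of any of these 6 transcripts but *Emilin1* occurred in the transcripts of another gene. In *Emilin1*, 28 of 5052 words (0.554%) did.

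The coding sequence of elastin repeats itself in places. The 120 coding bases below (chr5:134707511-134707630, minus strand, 1 exon) hold the word GGTGGA, in capitals, 8 times, and only 28 of their 115 six-base words are different. They are shown as an example of this repetition.
Eln: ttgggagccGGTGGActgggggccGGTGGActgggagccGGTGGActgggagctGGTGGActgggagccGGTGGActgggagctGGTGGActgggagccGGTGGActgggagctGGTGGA
Across the *Eln* transcript, 8 of 8073 words of 50 bases (0.0991%) were shared with another gene.

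The 6 libraries held between 20369746 and 32734485 counts. They had *Ddx3y* at 1571 to 2559 counts and the female-specific *Xist* at 0 to 6, so that both groups carried a male pattern. Counts of mitochondrial genes made up 24.7% ± 1.6 (SD, n = 3) of the vehicle and 27.5% ± 1.5 (SD, n = 3) of the Tributyrin libraries (two-sided exact permutation p = 0.2, where 0.1 is the smallest p that 3 against 3 allows). Markers of ventricular cardiomyocytes summed to between 48910 and 53190 CPM (counts scaled to a common library total). Of these markers, 4 had the higher mean with Tributyrin and 2 the lower. *Tnnt2* and *Tnni3* had log2 fold changes of 0.23 and 0.21, and *Actc1* had -0.21 (edgeR unadjusted p = 0.0315, 0.0262 and 0.045). Vehicle replicates 1 and 2 stood apart in 4 of 6 atrial markers (*Sln*, *Myl4*, *Myl7* and *Mybphl*). Of the other two, *Nppa* was higher in vehicle replicate 3, and *Bmp10* had at most 1 count. The summed level of the 6 was 181.9 and 172.3 CPM in these 2 libraries, against 31.02 to 64.31 CPM in the other 4 (exact permutation p = 0.2 between groups). All 5 atrial markers tested had the lower mean with Tributyrin, 4 of them at an unadjusted p under 0.05. Values without these 2 libraries are therefore also given for the members' median and for some members, but not for the wider list. That leaves vehicle replicate 3 alone against 3 Tributyrin libraries. The spread then comes from the Tributyrin group only, and these values carry no p. The labels describe separate mice only by number, so p-values measure the spread between these samples.

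None of the 10 genes passed a false discovery rate (FDR) of 5% or 10%, with adjusted p = 0.999 for each (edgeR's quasi-likelihood test, Benjamini-Hochberg over 14133 genes). In the same test 0 of all genes tested (0.0%) passed either threshold, while 600 genes (4.25%) had an unadjusted p under 0.05. In DESeq2, with 5 genes past 5% (0.0379%) and 11 past 10% (0.0835%), the members all had adjusted p = 1.0. Only *Fbln2* and *Mfap5*, 2 of the 10, reached an unadjusted p under 0.05, both with the lower mean in Tributyrin hearts, against 2.28% of all genes in that direction and 1.97% in the other. The same 2 did so in limma-voom, where 4.28% of all genes did. The mean was lower with Tributyrin for 6 members and higher for 4, and 50.4% of all genes had the lower mean. Their median log2 fold change was -0.10, from -0.49 to 0.14, where that of all genes was -0.001. No member had all 3 libraries of one group on one side of the other group, which 8.91% of all genes did (4.65% lower and 4.26% higher with Tributyrin). The count at an unadjusted p under 0.05 was 0 without vehicle replicate 2 and 0 without vehicle replicate 3, where the share of all genes was 2.82% and 2.68%. Without Tributyrin replicate 1 it was 1, beside 3.74% of all genes, which was *Eln* and not *Fbln2* or *Mfap5*, and the members' median was then 0.007, as it was 0.021 without vehicle replicate 2. With vehicle replicates 1 and 2 both left out the median was -0.11.

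**Figure D1:**
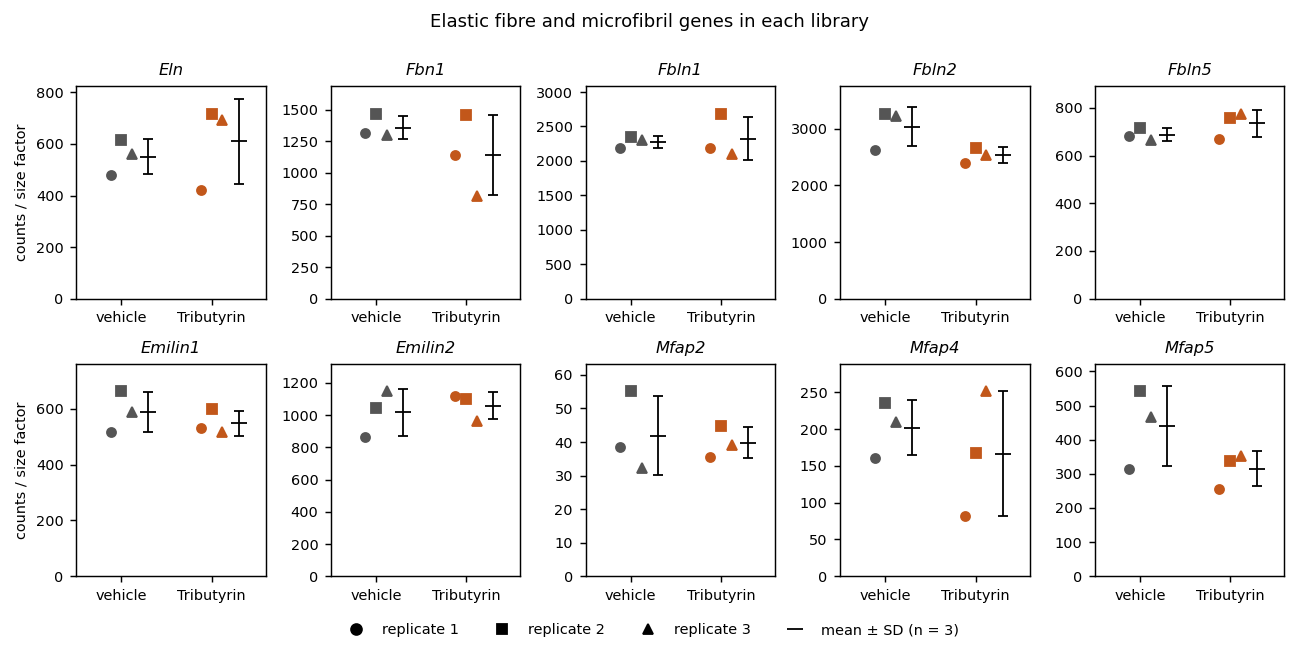
Normalised counts (counts divided by the DESeq2 size factor, linear axis from 0) of the 10 genes in each library, with circles, squares and triangles for replicates 1, 2 and 3 and bars for the mean ± SD (n = 3). The groups overlap in every panel, and relative to the mean the groups are furthest apart for *Mfap5*, at 440.4 in vehicle and 315.5 in Tributyrin hearts.

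The levels of the genes were compared per length, as CPM per kilobase of exon over all 6 libraries. *Fbln1* (mean 19.8 in vehicle and 20.2 in Tributyrin hearts) and *Fbln2* (mean 16.6 over all) had the most RNA per length, and their ranges overlapped, from 18.2 to 23.4 and from 14.3 to 19.4, although *Fbln1* was above *Fbln2* in 6 of 6 libraries. *Emilin2* followed at 7.17, with every library below every library of *Fbln2* and above every library of *Emilin1*. The next 5 genes lay close together, *Emilin1* at 4.38, *Mfap5* at 4.0, *Fbn1* and *Fbln5* at 3.91 and *Mfap4* at 3.65, and each overlapped its neighbour in this order. *Eln* had 2.73 and also overlapped *Mfap4*. *Mfap2* was the lowest at 1.28, with its highest library at 1.73 and the lowest *Eln* library at 1.97. By this measure the transcript of the elastic core was among the less abundant in these ventricles, and 2 fibulins were the most abundant. The length used joins the exons of all annotated transcripts of a gene. It was 8098 bases for *Eln*, with a coding sequence of 2580, and 12128 for *Fbn1*, with one of 8619. The order depends on this choice of length and was not examined with another.

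**Figure D2:**
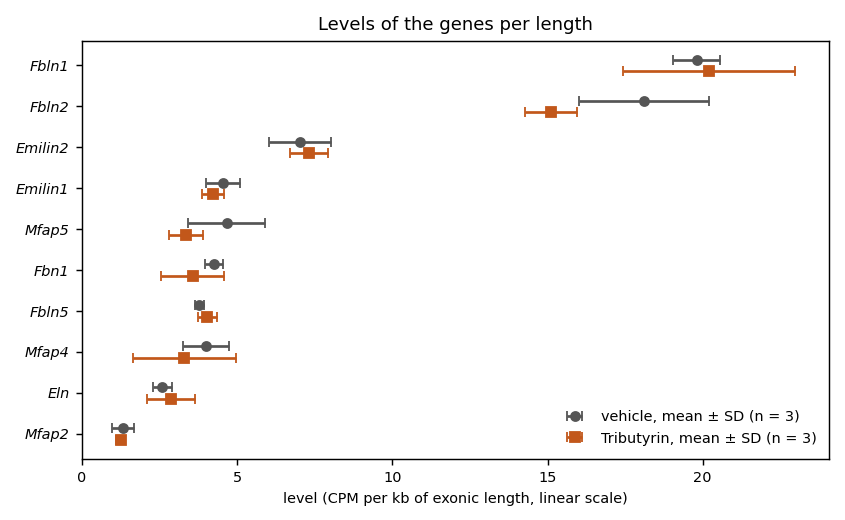
Level of each gene in CPM per kilobase of exonic length (linear axis from 0), as mean ± SD of 3 vehicle libraries (grey circles) and 3 Tributyrin libraries (orange squares). *Fbln1* and *Fbln2* lie well above the rest, and *Mfap2* lies lowest, at 1.32 in vehicle and 1.25 in Tributyrin hearts.

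The elastic core was represented by *Eln* (chr5:134702593-134747323, minus strand), which encodes tropoelastin. Its normalised read counts were 479.2, 614.9 and 559.1 in vehicle replicates 1 to 3, and 419.9, 716.3 and 694.0 in the Tributyrin replicates. Tributyrin replicate 1 was thus the lowest of all libraries and the other two the highest, so that the groups overlapped. The means were 551.0 ± 68.22 and 610.1 ± 165.1 (SD, n = 3), with a log2 fold change of 0.14 (SE 0.18, 95% interval -0.26 to 0.55, edgeR unadjusted p = 0.445, adjusted p = 0.999). Without Tributyrin replicate 1 the log2 fold change was 0.36 (edgeR unadjusted p = 0.00989, adjusted p = 1.0), and without Tributyrin replicate 2 it was 0.006. With vehicle replicates 1 and 2 both left out it was 0.12, from 1 vehicle library.

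The microfibril scaffold is made of fibrillin-1, the product of *Fbn1* (chr2:125300594-125507993, minus strand), the gene mutated in Marfan syndrome. Its normalised read counts were 1312, 1466 and 1297 in vehicle hearts and 1141, 1455 and 817.9 in Tributyrin hearts. Tributyrin replicates 1 and 3 were below all vehicle libraries, but replicate 2 lay within them. The means of 1358 ± 93.33 and 1138 ± 318.4 (SD, n = 3) gave a log2 fold change of -0.25 (SE 0.17, 95% interval -0.62 to 0.12, edgeR unadjusted p = 0.159). This value rested on replicates 2 and 3 of the Tributyrin group in opposite ways. It was -0.47 without replicate 2 (edgeR unadjusted p = 0.00636, adjusted p = 0.389) and -0.06 without replicate 3. With vehicle replicates 1 and 2 both left out it was -0.19, from 1 vehicle library. The ratio of *Eln* to *Fbn1* normalised counts was 0.365, 0.42 and 0.431 in vehicle and 0.368, 0.492 and 0.849 in Tributyrin hearts, a ratio that was widest in Tributyrin replicate 3 and overlapped between groups.

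Among the fibulins, which link tropoelastin to microfibrils and to basement membranes, *Fbln2* (chr6:91212455-91272540, plus strand) had the smallest unadjusted p of the 10 genes. Its product binds both tropoelastin and fibrillin. The normalised read counts were 2634, 3262 and 3224 in vehicle hearts and 2394, 2669 and 2542 in Tributyrin hearts. Vehicle replicates 2 and 3 were above all Tributyrin libraries, and vehicle replicate 1 lay among them. The means were 3040 ± 352.2 and 2535 ± 137.7 (SD, n = 3), a change of -16.6%, with a log2 fold change of -0.26 (SE 0.09, 95% interval -0.47 to -0.06, edgeR unadjusted p = 0.0177, adjusted p = 0.999). It was in place 195 of 14133 when genes were ordered by p. Leaving out vehicle replicate 2, vehicle replicate 3 or Tributyrin replicate 1 gave edgeR unadjusted p = 0.0804, 0.0785 and 0.0663. With vehicle replicates 1 and 2 both left out the log2 fold change was -0.35, from 1 vehicle library.

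The 2 other fibulins showed smaller differences, in the other direction. *Fbln1* (chr15:85205949-85286535, plus strand), whose product is found in elastic fibres and basement membranes, had 2184, 2353 and 2307 normalised counts in vehicle and 2194, 2682 and 2099 in Tributyrin hearts. Its log2 fold change of 0.03 (SE 0.10, 95% interval -0.18 to 0.24) turned to -0.04 when libraries were scaled by their size alone and to -0.09 without Tributyrin replicate 2. *Fbln5* (chr12:101746565-101819055, minus strand), whose product is required for the assembly of elastic fibres, had 679.8, 717.3 and 665.9 against 670.5, 758.4 and 774.3 normalised counts. Its log2 fold change was 0.09 (SE 0.09, 95% interval -0.10 to 0.28, edgeR unadjusted p = 0.294). The ratio of *Fbln2* to *Fbln1* was 1.21, 1.39 and 1.4 in vehicle hearts and 1.09, 0.995 and 1.21 in Tributyrin hearts, and touched at its ends.

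The emilins differed little between groups and in opposite directions. *Emilin1* (chr5:30913402-30921277, plus strand), whose product lies between elastin and microfibrils and limits the processing of pro-TGF-β, had 517.6, 661.4 and 586.4 normalised counts in vehicle and 530.2, 598.5 and 515.1 in Tributyrin hearts. *Emilin2* (chr17:71252172-71311978, minus strand), a related glycoprotein gene, had 861.7, 1042 and 1147 against 1116, 1102 and 961.3. The groups overlapped for both, with *Emilin1* lowest in Tributyrin replicate 3 and *Emilin2* lowest in vehicle replicate 1. The log2 fold change was -0.10 (SE 0.11, edgeR unadjusted p = 0.367) for *Emilin1*. For *Emilin2* it was 0.06 (SE 0.11, edgeR unadjusted p = 0.581), which turned to -0.01 under scaling by library size alone, to -0.04 without vehicle replicate 1 and to -0.12 without vehicle replicates 1 and 2.

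Of the microfibril-associated glycoproteins, all 3 had a lower mean in Tributyrin hearts, and *Mfap5* (chr6:122505845-122529290, plus strand) had the largest difference among the 10 genes. Its product, MAGP-2, binds fibrillin. The normalised read counts were 312.9, 541.2 and 467.1 in vehicle hearts and 256.2, 338.1 and 352.2 in Tributyrin hearts. Vehicle replicates 2 and 3 were above every Tributyrin library, but vehicle replicate 1 was below 2 of them. The means were 440.4 ± 116.5 and 315.5 ± 51.81 (SD, n = 3), a change of -28.4%, with a log2 fold change of -0.49 (SE 0.19, 95% interval -0.91 to -0.06, edgeR unadjusted p = 0.0285, adjusted p = 0.999). With no filter on low counts, which changed how far edgeR drew the spread of each gene to a common value (prior degrees of freedom of 6.31 with the filter and infinite without), its adjusted p was 0.0192. It was the only member past 5% or 10% in that fit, where 0.547% of 25581 genes passed 5% and 0.653% passed 10%. Leaving out vehicle replicate 2, vehicle replicate 3 or Tributyrin replicate 1 gave log2 fold changes of -0.30, -0.44 and -0.35 with edgeR unadjusted p = 0.152, 0.0755 and 0.0944. Without vehicle replicates 1 and 2 it was -0.57, from 1 vehicle library.

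*Mfap2* (chr4:141010418-141015984, plus strand) encodes MAGP-1, the close relative of MAGP-2, and was the gene with the fewest reads, at 26 to 71 counts per library. Its normalised counts were 38.46, 55.05 and 32.3 in vehicle and 35.53, 44.77 and 39.0 in Tributyrin hearts, with the Tributyrin libraries inside the vehicle range. At this depth counting alone gives an SD of up to 19.6% of a value, and the 95% interval of the log2 fold change of -0.10 ran from -0.68 to 0.49, so that only larger differences could be seen. The value was 0.17 without vehicle replicate 2. The ratio of *Mfap5* to *Mfap2* was 8.14, 9.83 and 14.5 in vehicle and 7.21, 7.55 and 9.03 in Tributyrin hearts.

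*Mfap4* (chr11:61485431-61488900, plus strand), whose product binds elastin, fibrillin and integrins, was the gene whose libraries differed most within a group. Its normalised counts were 161.1, 234.9 and 210.0 in vehicle hearts and 82.29, 167.2 and 251.2 in Tributyrin hearts, so that both the lowest and the highest library were in the Tributyrin group. The log2 fold change was -0.29 (SE 0.31, 95% interval -0.98 to 0.40, edgeR unadjusted p = 0.368), with 0.04 without Tributyrin replicate 1 and -0.69 without Tributyrin replicate 3 (edgeR unadjusted p = 0.0301, adjusted p = 0.999). *Mfap4* shares 89 exonic bases with *Mapk7* on the opposite strand, which had 128 to 176 counts. The library kit kept the strand, but the sources used here do not give whether the counting used it.

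The libraries did not order the genes alike. Vehicle replicate 2 was the highest library for 5 of the 10 genes, Tributyrin replicate 1 the lowest for 4, and Tributyrin replicate 3 the lowest for 3. When each gene's log2 CPM was centred on its mean, the median of the 10 genes was 0.23 in vehicle replicate 2 and -0.14 in Tributyrin replicate 1, the highest and lowest of the 6. *Eln* and *Fbn1* parted in Tributyrin replicate 3, where *Eln* was near its highest value and *Fbn1* at its lowest. Over the 6 libraries and 7949 genes with at least 10 CPM on average, the genes with the pattern most like that of *Eln* were *Plxna2*, *Pik3r1*, *Vasn*, *Ucp2* and *Plin3*, with root mean square differences of 0.08 to 0.11 in centred log2 CPM. For *Fbn1* they were *Zbtb37*, *Ern1*, *Myocd*, *Col15a1* and *Arhgef12*, at 0.08 to 0.11. No gene was on both lists.

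The wider list held 41 further genes of the same pathway, of which 37 were tested. *Fbln7*, *Emilin3* and *Mmp12* were below the filter on low counts, and *Elane* had 0 counts in all libraries. None of the 37 passed an FDR of 5% in edgeR. Of them, 31 had the lower mean in Tributyrin hearts and 6 the higher, where 50.4% of all genes had the lower mean. Their median log2 fold change was -0.15, where that of all genes was -0.001. The list was chosen with earlier results of these data known. At an unadjusted p under 0.05 there were 7, all with the lower mean, beside 2.28% of all genes in that direction, and 6 had all Tributyrin libraries below all vehicle libraries, beside 4.65% of all genes. The 7 came to 4 without vehicle replicate 2, where 2.82% of all genes were under 0.05, and to 15 without Tributyrin replicate 2, where 9.56% were. With the atrial markers as a covariate they came to 6, where 3.08% of all genes were. Some of these genes were in the study's own list of altered transcripts from the same mice, so that their count is not independent evidence.

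The crosslinking enzymes, which oxidise lysines of elastin and collagen so that fibres become insoluble, held 3 of these 7 among 5 tested. Of all genes, 2.28% had the lower mean at an unadjusted p under 0.05. *Loxl2*, known for crosslinking collagen IV of basement membranes, had 313.9, 408.6 and 333.0 normalised counts in vehicle and 233.8, 235.7 and 245.5 in Tributyrin hearts. The groups did not overlap, and the 3 Tributyrin libraries lay close together, with a log2 fold change of -0.57 (SE 0.12, edgeR unadjusted p = 0.000793, adjusted p = 0.999). *Loxl1*, the lysyl oxidase most tied to elastin upkeep and the most abundant of the 5, had 1143, 1286 and 1219 against 980.9, 1112 and 821.3, again without overlap (log2 fold change -0.32, SE 0.11, edgeR unadjusted p = 0.0135). *Loxl3* had 135.1, 116.3 and 129.2 against 89.77, 102.3 and 74.56 (log2 fold change -0.50, SE 0.17, edgeR unadjusted p = 0.0123). *Lox* itself, the founding member of the family, had means of 118.0 ± 21.88 and 126.4 ± 13.15 (SD, n = 3) and a log2 fold change of 0.12 (SE 0.18); it was named after its values were seen, as the 1 enzyme of the 5 with the higher mean.

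Among the microfibril adaptors, 10 of 11 had the lower mean, beside 50.4% of all genes. Of the 11, 3 had an unadjusted p under 0.05 with the lower mean, beside 2.28% of all genes. *Ltbp2*, a fibrillin-binding protein of the latent TGF-β binding family, had 113.3, 148.1 and 269.6 normalised counts in vehicle and 43.01, 77.67 and 112.4 in Tributyrin hearts. Every Tributyrin library was below every vehicle library, though vehicle replicate 1 and Tributyrin replicate 3 all but met, and the log2 fold change was -1.19 (SE 0.36, edgeR unadjusted p = 0.00784, adjusted p = 0.999). *Adamtsl5*, whose product binds fibrillin, had 2925, 3220 and 3069 against 2313, 2441 and 2574 with little spread in either group (log2 fold change -0.33, SE 0.07, edgeR unadjusted p = 0.001, adjusted p = 0.999). *Ltbp4*, which guides fibulin-5 and elastin to microfibrils and was the most abundant adaptor, had means of 9637 ± 1183 and 7726 ± 1292 (SD, n = 3) and overlapping groups (log2 fold change -0.32, SE 0.13, edgeR unadjusted p = 0.0299).

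The other roles held fewer differences. All 9 tested proteases and inhibitors had the lower mean, beside 50.4% of all genes. The macrophage elastase *Mmp12*, which was below the filter, went the other way, with 6, 10 and 2 counts in vehicle and 11, 43 and 5 in Tributyrin hearts, and it is described because of its values. Its groups overlapped (DESeq2 log2 fold change 1.72, unadjusted p = 0.0304, with no adjusted p). Only *Timp2*, an inhibitor of matrix metalloproteinases, reached an unadjusted p under 0.05 (log2 fold change -0.22, SE 0.09, edgeR unadjusted p = 0.0283), while the most abundant, *Timp3*, had -0.18 (SE 0.20). None of 6 other family members did. *Efemp2*, which encodes fibulin-4, had the lowest p of them (log2 fold change -0.24, SE 0.13, edgeR unadjusted p = 0.102) and groups that did not overlap, and *Mmrn2*, the most abundant, had -0.05 (SE 0.08). None of the 6 integrin receptor genes did either, with *Itgb1*, the most abundant, at 0.01 (SE 0.07) and *Itga5*, with the lowest p, at -0.14 (SE 0.09, edgeR unadjusted p = 0.149).

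**Figure D3:**
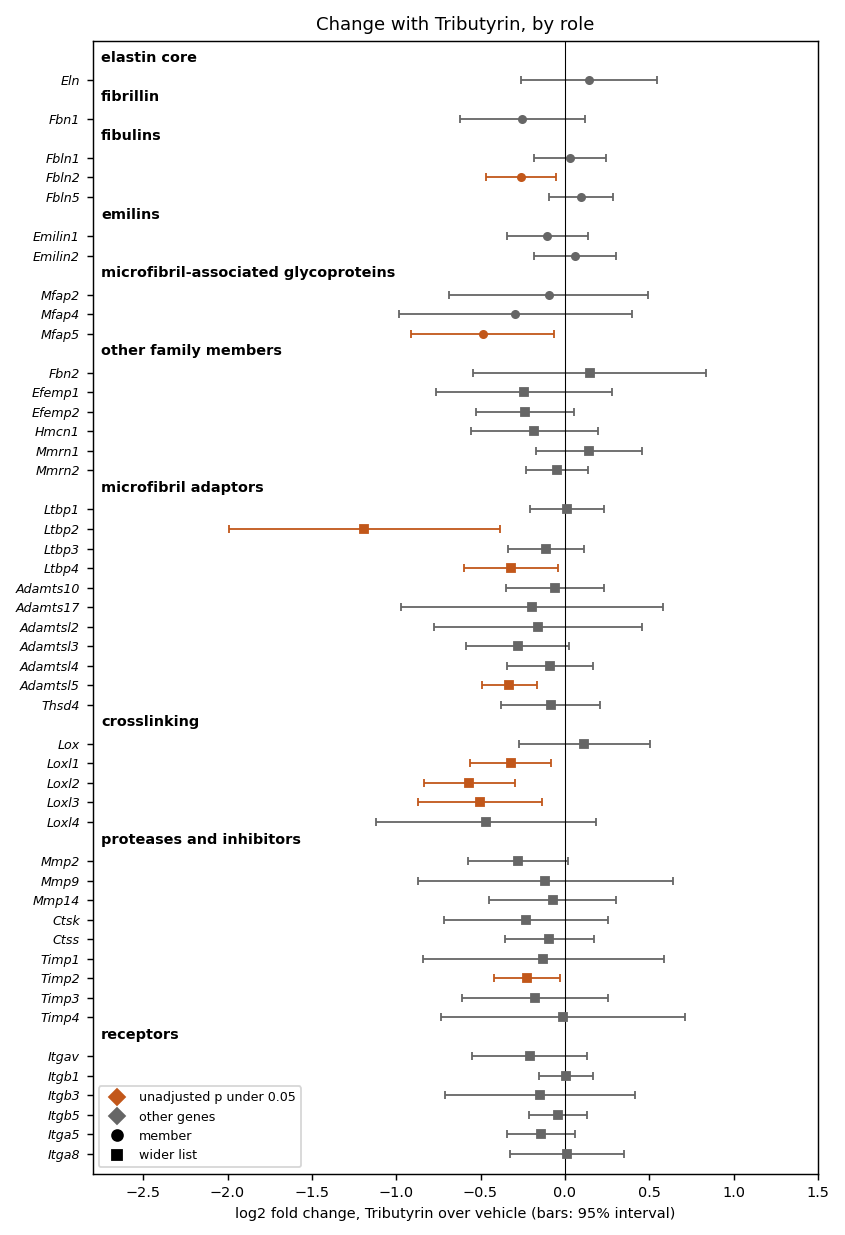
Log2 fold change of Tributyrin over vehicle, by role, for the 10 genes (circles) and the 37 tested genes of the wider list (squares), with bars for the 95% interval from edgeR's quasi-likelihood test (3 against 3 libraries) and orange for an unadjusted p under 0.05. Of the circles, only *Fbln2* (-0.47 to -0.06) and *Mfap5* (-0.91 to -0.06) have intervals that leave out 0, and the 7 orange squares all lie on the lower side.

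**Figure D4:**
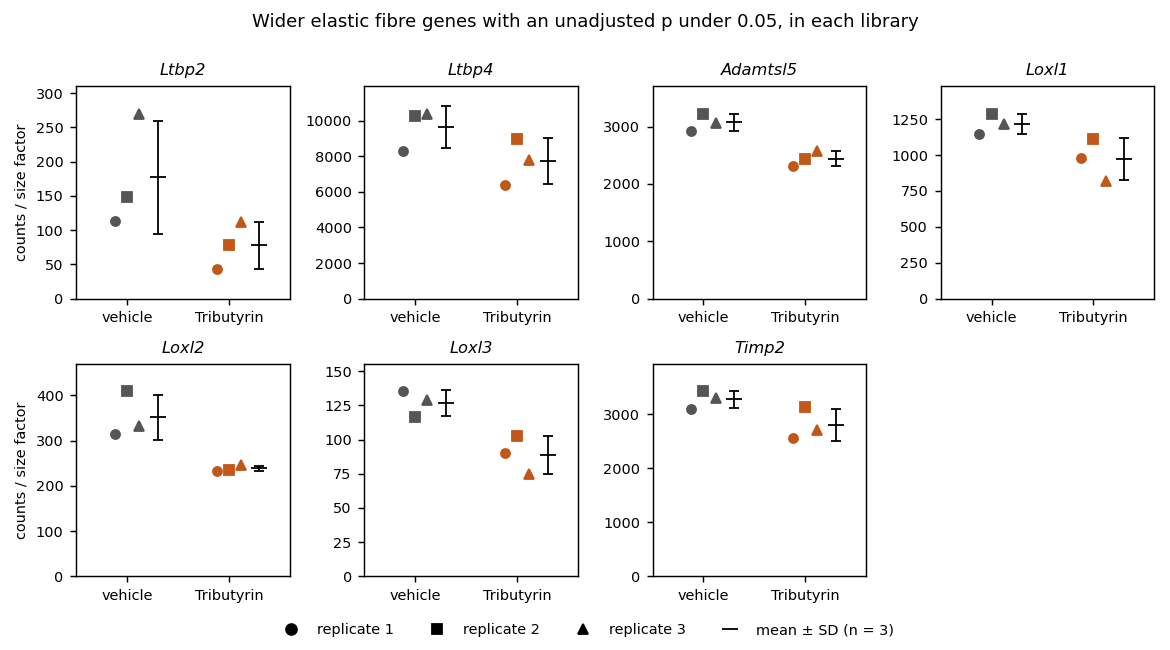
Normalised counts (counts divided by size factor, linear axis from 0) in each library for the 7 genes of the wider list with an unadjusted p under 0.05, with replicate numbers by symbol and bars for the mean ± SD (n = 3). The groups are apart for *Ltbp2*, *Adamtsl5*, *Loxl1*, *Loxl2* and *Loxl3* and overlap for *Ltbp4* and *Timp2*, and *Ltbp2* has the widest spread relative to its mean, from 113.3 to 269.6 in vehicle hearts.

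Whole ventricle was sequenced, so fewer cells of a type and less RNA per cell cannot be told apart. Fibroblast markers, from the cells that make most of these proteins, summed to 2295 ± 53.8 CPM in vehicle and 2254 ± 252 CPM in Tributyrin hearts (SD, n = 3, exact permutation p = 0.8). The sum is carried by *Gsn* (1290 to 1650 CPM) and *Dcn* (446 to 509 CPM), which had log2 fold changes of 0.02 and 0.005. Within the 8 markers, 5 had the lower mean, with *Col1a1*, a chain of collagen I (log2 fold change -0.46, edgeR unadjusted p = 0.0224), and *Lum*, the proteoglycan lumican (-0.31, edgeR unadjusted p = 0.00257), at an unadjusted p under 0.05, and the fibroblast-defining *Pdgfra* had -0.01. Adventitial fibroblast markers summed to 163.4 ± 23.4 and 153.2 ± 16.1 CPM (SD, n = 3, exact permutation p = 0.6), with *Pi16* (-0.44) and *Cd248* (-0.53) at an unadjusted p under 0.05. Vehicle replicate 2, which was highest for *Mfap5* and *Fbln2*, was also highest for this sum, at 189.0 CPM, and Tributyrin replicate 1, lowest for both, was lowest at 135.0 CPM. The other libraries were not ordered alike. The sum was 165.5 and 159.0 CPM in Tributyrin replicates 2 and 3, above 158.4 CPM in vehicle replicate 3. For both genes, vehicle replicate 3 was above these Tributyrin replicates. The part of adventitial fibroblasts in the values of *Fbln2* and *Mfap5* was not tested. Activated fibroblast markers summed to 151.6 ± 35.7 and 147.4 ± 56.6 CPM (SD, n = 3, exact permutation p = 0.8), with *Cthrc1* below the filter. Most of this sum was *Acta2*, which is also a smooth muscle gene, at 65.4 to 151.0 CPM (log2 fold change 0.11). The other 3 tested markers had lower means, with log2 fold changes of -0.53 for *Postn*, -0.76 for *Comp* and -0.93 for *Tnc* (edgeR unadjusted p = 0.0781, 0.0941 and 0.126).

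Vascular smooth muscle markers, from another source of elastin, summed to 249.4, 300.9 and 269.1 CPM in vehicle and 233.3, 349.4 and 334.7 CPM in Tributyrin hearts (exact permutation p = 0.5). All 5 had the higher mean, with *Myh11*, the smooth muscle myosin (log2 fold change 0.59, edgeR unadjusted p = 0.00535), and *Cnn1*, calponin (0.71, edgeR unadjusted p = 0.0205), at an unadjusted p under 0.05. Of all genes, 1.97% were higher at that threshold. *Smtn*, *Tagln* and *Acta2* had smaller log2 fold changes of 0.04, 0.09 and 0.11. Most of the sum was *Acta2* (65.4 to 151.0 CPM) and *Smtn* (113 to 128 CPM). The Tributyrin libraries were ordered as for *Eln*, with replicate 1 low and replicates 2 and 3 high. The activated fibroblast sum, which shares *Acta2* with this list, was also low in Tributyrin replicate 1 (82.23, 176.9 and 183.2 CPM in Tributyrin replicates 1 to 3). What part smooth muscle had in the level of *Eln* was not tested. Of the other lists, summed marker levels were 1045 ± 16.4 and 1092 ± 36.8 CPM for pericytes, 587.9 ± 6.74 and 584.6 ± 31.3 for endothelium, 21.5 ± 8.55 and 19.13 ± 4.1 for epicardial mesothelium, and 77.34 ± 7.55 and 72.55 ± 12.4 for macrophages (vehicle and Tributyrin, SD, n = 3). They were 576.7 ± 107.0 and 608.4 ± 294.0 for erythroid cells and 8.65 ± 0.996 and 8.618 ± 1.05 for Schwann cells, and the exact permutation p was between 0.6 and 1.0 for these lists other than pericytes. For pericytes it was 0.1, the smallest possible, since the 3 Tributyrin sums (1081, 1134 and 1063 CPM) lay above the 3 vehicle sums (1058, 1027 and 1051 CPM). These sums rest on TMM scaling, with a factor of 0.945 for Tributyrin replicate 3. Divided by library size alone, the pericyte sums of the groups overlapped, with Tributyrin replicate 3 the lowest. All 4 adipocyte markers were below the filter, at 0.4349 to 2.474 CPM in sum.

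**Figure D5:**
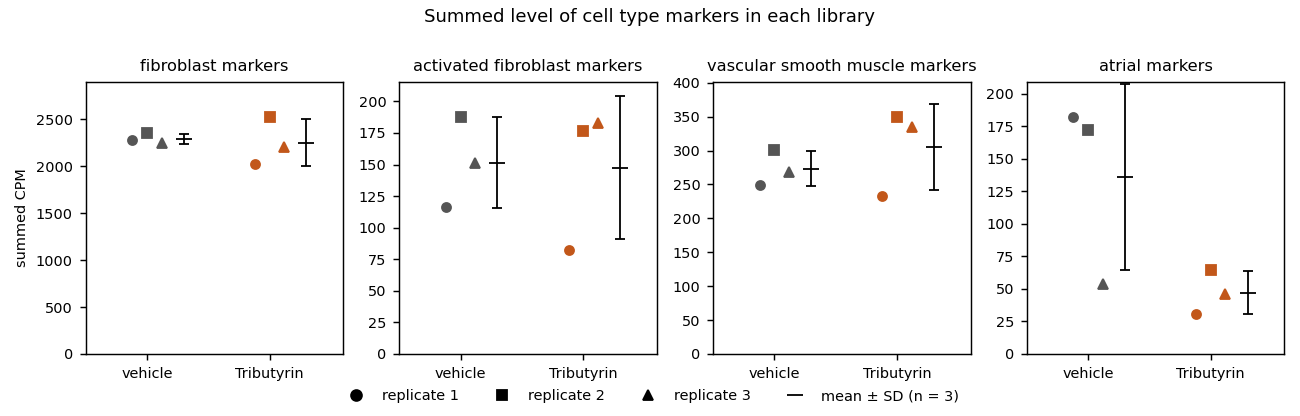
Summed CPM of fibroblast, activated fibroblast, vascular smooth muscle and atrial markers in each library (linear axes from 0), with replicate numbers by symbol and bars for the mean ± SD (n = 3). The groups overlap in all 4 panels, and vehicle replicates 1 and 2 (181.9 and 172.3 CPM) stand above the other 4 libraries in atrial markers.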

How the data were processed

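The authors sequenced stranded mRNA libraries of ventricle as single 50-base reads and deposited raw counts per Ensembl gene. The submitters' processing notes name cutadapt 1.13, STAR, HTSeq 0.6.1p1, DESeq2 1.14.1 and the build mm10. Which annotation was counted, and whether by strand, is not given in the sources used here. Of 54232 gene IDs, 54165 matched GENCODE M21 (GRCm38), which gave symbols, coordinates and exonic lengths, and 0 lines named no gene.

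The deposited counts were tested with edgeR 4.0.16 (quasi-likelihood, TMM scaling, filterByExpr with a minimum count of 10 and total of 15) in R 4.3.3, Tributyrin over vehicle with no covariate, and adjusted by Benjamini-Hochberg over all 14133 genes tested. Thresholds were an FDR of 5%, from the study's methods, and of 10%, from its results. Normalised counts are counts divided by DESeq2 1.42.0 size factors. The 95% intervals are from edgeR's fit. Log2 CPM used a prior count of 2, in the comparison of patterns, the centred medians per library, the atrial covariate and the replicate correlations. Single sums were compared by a two-sided exact permutation test. The code was tested on simulated data.

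Alternatives were DESeq2, limma-voom (limma 3.58.1), other scaling and filters, a replicate block and leaving out each library. Leaving out vehicle replicates 1 and 2 together, and a covariate from the atrial markers, were added after seeing the data. The members, the wider list and the marker lists were chosen with earlier results of these data known. All members were named, and from the wider list the genes with an unadjusted p under 0.05 and, in each role, the most abundant gene and that with the lowest p. Patterns were compared for *Eln* and *Fbn1*, with the 5 nearest genes named. Pairs of libraries differed by more than sampling noise (chi-square per degree of freedom at least 7.4), so none was counted as a repeat.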

Additional observations from a re-analysis of the deposited data

How the results depend on the processing

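Among alternatives with more than 1 library per group, no member passed an FDR of 5% or 10% except in the fit with no filter on low counts. In that fit, with infinite prior degrees of freedom, 1 member (*Mfap5*, log2 fold change -0.49, edgeR adjusted p = 0.0192) and 4 of 40 wider genes passed 5%. The same 1 member passed 10%. Of all 25581 genes in that fit, 0.547% passed 5% and 0.653% passed 10%. *Eln*, *Fbn1*, *Fbln2*, *Fbln5*, *Emilin1* and *Mfap5* kept their direction under all alternatives run. Scaling by library size alone, which moved the median of all genes to -0.074, gave -0.041 for *Fbln1* and -0.011 for *Emilin2*. With vehicle replicates 1 and 2 left out, a fit in which the 1 vehicle library left is assumed to vary like the Tributyrin libraries, *Emilin2* was -0.12 and *Mfap2* was 0.30. With the atrial covariate, *Emilin2* was -0.028 and *Mfap2* 0.136. The cause of these shifts was not tested.

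Leaving out 1 library at a time gave 0 to 3 members with an unadjusted p under 0.05, 4 to 15 wider genes, beside 2.68% to 9.56% of all genes, a members' median of -0.19 to 0.02 (0.021 without vehicle replicate 2, 0.007 without Tributyrin replicate 1) and 0 to 2 members whose groups did not overlap, where 15.2% to 27.3% of all genes did not. The log2 fold change then ran from -0.088 to 0.101 for *Fbln1*, -0.038 to 0.156 for *Emilin2*, -0.241 to 0.165 for *Mfap2* and -0.692 to 0.044 for *Mfap4*. *Mfap2* had no value at a mean CPM of at least 5.

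The replicate numbers were not treated as pairs in the main test. The deviations of same-numbered libraries correlated at 0.21, 0.04 and 0.01. Libraries of unlike number were not compared in this way, so whether the numbers pair the samples was not settled. With the replicate number as a block, 3 members (*Fbn1*, *Fbln2* and *Mfap5*) and 8 wider genes had an unadjusted p under 0.05, beside 5.17% of all genes, and 0 members passed an FDR of 5%. The block changed no direction, with *Fbn1* at -0.28, *Fbln2* at -0.26 and *Mfap5* at -0.47. With 26 to 71 counts per library, depth limits *Mfap2* most.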
